A study of Mus musculus with 8 samples.

Results

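Tetraspanins are small proteins that cross the membrane 4 times and gather integrins, receptors and proteases into clusters at the cell surface, on endosomes and on released vesicles. The family was read here from the array's gene names, as every probe named Tspan plus a digit together with Cd9, Cd37, Cd53, Cd81, Cd82 and Cd151. These names matched 48 probes of 27 names, 1 of which, Tspan2os, is a long non-coding RNA beside Tspan2 and not a tetraspanin. Of the 27 names, 22 had a probe above background on at least 4 of 8 arrays and were tested among 27963 genes in all. The other 5, Tspan6, Tspan10, Tspan11, Tspan12 and Tspan2os, were well above background on 2, 3, 0, 0 and 0 of 8 arrays and were not tested.

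In macrophages, tetraspanins are known for holding back cell fusion (Cd9 and Cd81), for organising antigen receptors and lectins at the surface (Cd37), for the membrane tracks and vesicles left by moving cells (Tspan4), and for carrying the protease ADAM10 to the surface (the TspanC8 members). Several of them occur in the same membrane patches as MHC class II in antigen-presenting cells. This is background and was not measured.

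The study compared 4 MHCII-high with 4 MHCII-low samples of macrophages from pancreas tumours that had been implanted in female FvBn mice of 8 to 10 weeks. The labels give MHCII as the difference between the sorts and leave the genotype out, so no allele can be named for either group. The series' design text mentions wild-type, KPC and FLT3-CRE/LSL-YFP mice, without assigning the 8 samples to any of them. The titles number the samples 20435, 20436, 20439 and 20442 in both groups, and no label calls these separate animals. So the spread behind each p-value is that of these samples alone and could be technical.

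On each array, 38755 to 42086 of its 56605 probes (68.5% to 74.4%) exceeded background by the scanner software's test, and precision is limited by having 4 arrays a group. All 8 macrophage markers looked at, among them Csf1r, Mertk and Cd68, were well above background on all 8 arrays. Their summed linear signal, relative to the 75th percentile of each array, was 153 to 213 in MHCII-high and 202 to 266 in MHCII-low, and 1 of the 8 (Adgre1, a surface receptor of mouse macrophages) was called, lower in MHCII-high. Dendritic cell markers moved with the groups: 8 of 9 were called higher in MHCII-high, and their summed signal was 11.4 to 25.9 against 1.85 to 2.59. Among 6 B cell markers 1 was called, higher in MHCII-high, and the median log2 fold change of the 6 was 0.61. Their sums were 9.66 to 12.2 in MHCII-high and 7.71 to 10.5 in MHCII-low, with overlap. Of 7 platelet markers 1 was called (Pf4, lower, a chemokine that macrophages also make). The platelet sums, to which each gene adds by its own brightness, were 7.90 to 9.75 against 16.7 to 29.2 without overlap, while the median log2 fold change of the 7 was 0.00328 and Gp9 was at 3.54, not called. Of 6 mast cell and basophil markers 2 were called, both higher, with sums of 2.25 to 9.93 against 1.35 to 2.79. Lists of T and NK cell, neutrophil and endothelial markers held 0 called genes. Among all genes tested, 2.69% were called higher and 2.25% lower. The sums of 6 fibroblast markers spread widely within each group, 7.99 to 58.0 in MHCII-high and 25.7 to 67.9 in MHCII-low, with 0 called. The sorts are bulk samples, so fewer cells of a type and less RNA per cell cannot be told apart. The part of RNA from dendritic cells, B cells, platelets, mast cells or stroma in the results that follow was not tested.

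Tetraspanins that differed between the sorts were mostly lower in MHCII-high. Of the 22 tested, 4 fell in MHCII-high (Tspan18, Tspan4, Cd151 and Cd37) and 1 rose (Tspan2), at limma's Benjamini-Hochberg adjusted p below 0.05. Over all genes, 2.25% were called lower, 2.69% higher and 4.94% in either direction. The median log2 fold change of the 22 was -0.37, beside 0.00267 over all genes tested, and 17 of the 22 had a negative fold change, beside 49.7% of all genes. The groups did not overlap for 10 of the 22, of which 9 were lower in MHCII-high. Over all genes, 14.5% did not overlap, 6.96% with the lower and 7.49% with the higher values in MHCII-high.

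Slide row and sort were partly confounded, so their parts in these calls cannot be fully told apart. Arrays lay in 2 rows of 1 slide, with 1 MHCII-high and 3 MHCII-low arrays in row 1 and 3 and 1 in row 2. With the row as a block, 1 tetraspanin, Tspan18, was called, where 1.63% of all genes were. The median of the 22 was then -0.41, and it was -0.29 within row 1 and -0.48 within row 2, each of which rests on a single array of a group.

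The count moved less under other choices, each read against its own share of all genes called. There were 5 called with normexp background correction (6.8% of all genes), median scaling (4.29%) and no filter on dim probes (2.9%). They were 6 with quantile normalization (5.28%), the authors' deposited series table (5.25%), a filter on all 8 arrays (6.82%) and the mean of a gene's probes (5.19%). Leaving out MHCII-low 20435, 20436, 20439 or 20442 gave 4 tetraspanins each time (2.59%, 3.06%, 2.94% and 2.98% of all genes). The 4 without MHCII-low 20435 include Tspan1, whose remaining MHCII-low arrays were at background. Leaving out MHCII-high 20435, 20436, 20439 or 20442 gave 5, 5, 3 and 4 (4.18%, 3.67%, 1.98% and 2.79%).

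Tspan18, a partner of the store-operated calcium channel Orai1 in endothelial cells, had the largest fall. Its log2 signal relative to the 75th percentile of the array was 1.17, 1.39, 1.11 and 0.68 in MHCII-low (label numbers in ascending order here and below) and -1.91, -0.89, -0.52 and -1.60 in MHCII-high. The MHCII-low arrays were all above the 75th percentile of their array and the MHCII-high arrays all below it, with no overlap. The fall was 4.98-fold (95% interval 3.02 to 8.23, adjusted p = 0.00735). The call stood in each of 8 fits lacking 1 array, at adjusted p up to 0.0256, and in the slide row fit described above (log2 -2.07, adjusted p = 0.036).

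Tspan18 has 5 probes on the minus strand of mm9 chromosome 2, spread over 109 kb, and they did not give 1 answer. The first 30 bases of the 60-base probes tested are printed 5′ to 3′, because the probes disagree, and no part is marked. Why they disagree was not tested. The brightest, at chr2:93043413-93043472, carries the RefSeq transcript NM_183180 in the files. Another, at chr2:93151420-93151479, lies upstream in the direction of transcription, and a middle one, at chr2:93067711-93067770, between them. Both of these carry Ensembl transcripts.
Tspan18 brightest probe: ttgttagtctctctaggctcagattaccca
Tspan18 upstream probe: gttctgggtcctttactcattccatgcctt
Tspan18 middle probe: ttttgggaggatcaagtgagcttacaggca

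The upstream probe had log2 signals of -2.31, -3.28, -3.04 and -3.73 in MHCII-low and passed the background test on 0 of 4 MHCII-high arrays. Its fall was at least 5.04-fold, against a floor for each MHCII-high array, the probe's own signal or, if higher, the dimmest signal that passed the background test. The probe was tested only because it was above background in MHCII-low, so no p is given for it. The middle probe ran the other way, at -1.06, -1.80, -1.76 and -1.99 in MHCII-low and -1.25, -1.57, -1.16 and -0.41 in MHCII-high. Its log2 fold change of 0.55 ± 0.29 (SE) was not called (adjusted p = 0.335 over the 41116 probes tested). Of the others, the probe at chr2:93041981-93042040 was well above background on 3 MHCII-low and 0 MHCII-high arrays, and the one at chr2:93133708-93133767 on none. No exon or UTR annotation of mm9 was used here, so which transcripts the middle probe reads was not settled.

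Next to Tspan18 on the chromosome, with no protein-coding gene between them in RefSeq's GRCm38.p6 order, lies Cd82. It is a membrane organiser that has also been described as a metastasis suppressor. Cd82 stood at 3.18, 3.72, 3.64 and 4.59 in MHCII-low and 3.50, 3.48, 3.59 and 3.92 in MHCII-high, with the MHCII-high arrays inside the MHCII-low range. Its log2 fold change was -0.16 (95% interval -0.82 to 0.49), and its 4 probes gave -0.07 to -0.32. Leaving out MHCII-low 20442, its highest array, turned the sign, to 0.11.

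Tspan4 and Cd151 lie close together on chromosome 7 with 1 protein-coding gene, Polr2l, between them, and both fell. Tspan4, the tetraspanin that builds migrasomes, the vesicles on the retraction fibres of migrating cells, was at 3.15, 2.96, 3.30 and 3.36 in MHCII-low and at 2.38, 1.997, 2.09 and 1.48 in MHCII-high. Every MHCII-high array was below every MHCII-low array, by a fold of 2.31 between the means (95% interval 1.66 to 3.23, adjusted p = 0.0173). Its probe is at chr7:148679215-148679274 on the plus strand of mm9. The call was lost without MHCII-low 20439 (adjusted p = 0.0512), without MHCII-high 20439 (0.0525) and when slide row was blocked (log2 -1.26, adjusted p = 0.0641).

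Cd151, which binds the laminin-receptor integrins alpha 3 and alpha 6, was at 0.81, 0.58, 0.92 and 0.76 in MHCII-low and at -0.14, -0.28, -0.26 and -0.83 in MHCII-high. The groups were again apart, and the fall was 2.22-fold (95% interval 1.66 to 2.96, adjusted p = 0.0127). The call held whichever array was left out, at adjusted p up to 0.0416, and the adjusted p was 0.0617 when slide row was blocked, at a log2 change of -1.11. The probe is at chr7:148657237-148657297 on the plus strand. Of its integrin partners, Itga6 fell by 1.09 on the log2 scale (95% interval of the change -1.42 to -0.76, adjusted p = 0.00669), and Itga3 was at 0.74 (-0.67 to 2.15, not called). Itgb1, the beta chain they share, was at -0.53 (adjusted p = 0.0941).

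Cd37, a tetraspanin of blood cells that is most abundant on B cells and holds the fungal lectin receptor dectin-1 (Clec7a) at the surface, fell as well. It was at 3.32, 3.18, 3.07 and 3.26 in MHCII-low and at 2.49, 2.41, 1.99 and 2.24 in MHCII-high. The 4 MHCII-low arrays lay close together and above all MHCII-high arrays, a fall of 1.90-fold (95% interval 1.49 to 2.42, adjusted p = 0.0152). Without MHCII-low 20435 the adjusted p was 0.0505, and blocking slide row it was 0.0708 at a log2 change of -0.90. Clec7a itself was at 0.53, higher without overlap and not called (adjusted p = 0.0815).

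Cd37 also has probes that differ. All 3 are on the minus strand of mm9, and their first 30 bases are shown for comparison.
Cd37 brightest probe, chr7:52489002-52489061: tctgtctgccacctcccacatgacacctca
Cd37 second probe, chr7:52490054-52490113: tggctgcacaacaatatcatctccatagtg
Cd37 upstream probe, chr7:52493104-52493163: ctactgagtccgaggccagcctgagttacc

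The first pair carries the RefSeq transcript NM_001290802. The second probe gave a log2 fold change of -1.32 ± 0.19 (SE, adjusted p = 0.00876), lower like the brightest one, at 2.46, 2.02, 1.97 and 2.32 in MHCII-low and 0.73, 1.24, 0.81 and 0.72 in MHCII-high. The upstream probe, which carries an Ensembl transcript only and lies farthest upstream, gave 0.34 ± 0.17 (SE), not called (adjusted p = 0.295).

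Tspan2, best known from oligodendrocytes and neurons, was the 1 tetraspanin that rose. It was at -3.71, -3.46, -2.83 and -3.70 in MHCII-low and at -2.48, -2.18, -1.97 and -2.07 in MHCII-high, on a probe well above background on all 8 arrays (chr3:102576043-102576102, plus strand, mm9). The groups did not overlap, with a rise of 2.38-fold (95% interval 1.66 to 3.42, adjusted p = 0.021). This was the least stable of the 5 calls: it was lost without MHCII-low 20435, 20436 or 20442 and without MHCII-high 20439 or 20442 (adjusted p up to 0.0692), and when slide row was blocked (0.0645). With normexp background correction the rise was 0.76 on the log2 scale in place of 1.25, still called (adjusted p = 0.0127). Tspan2os, the non-coding neighbour, was not above background on any array.

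**Figure D1:**
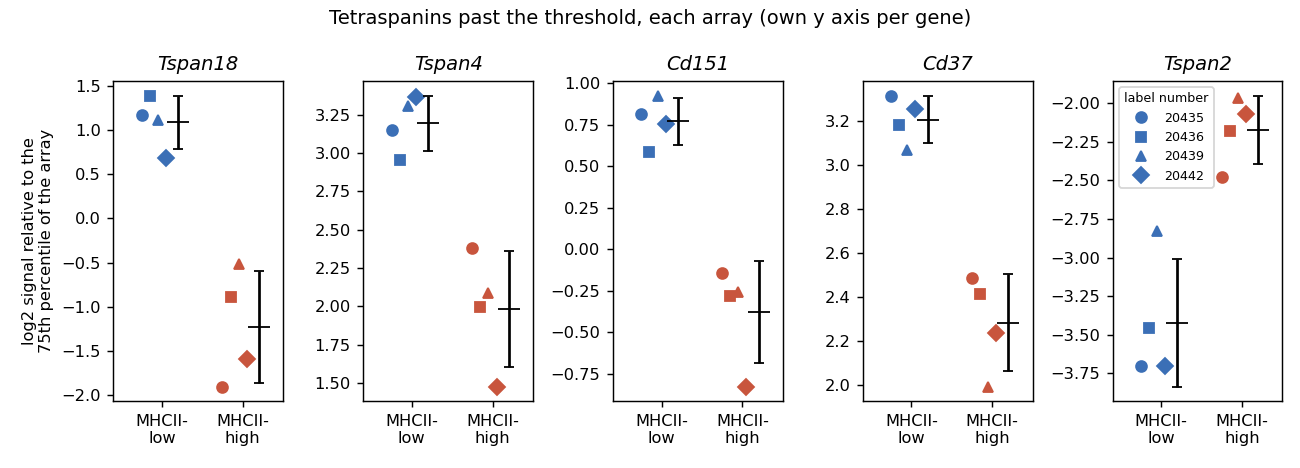
Log2 signal relative to the 75th percentile of the array (y axis, a separate scale for each gene) on each of the 8 arrays for the 5 tetraspanins past the threshold; marker shapes give the label number, and black bars the mean and SD of a group (n = 4). In every panel the groups are apart, as with Tspan18 at 0.68 to 1.39 in MHCII-low and -1.91 to -0.52 in MHCII-high.

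The promoters of 4 of these 5 genes are in the RefSeq table (GRCm38.p6), which did not list Tspan18. They are printed from 250 bases before to 50 after the first start site listed, 5′ to 3′ on the gene's strand. Tspan4, Cd151 and Cd37 were called lower and Tspan2 higher, and whether they share regulation was not tested. Capitals mark the GC box, GGGCGG on either strand, the core letters bound by Sp1.
Tspan4, chr7:141474986-141475285, plus strand: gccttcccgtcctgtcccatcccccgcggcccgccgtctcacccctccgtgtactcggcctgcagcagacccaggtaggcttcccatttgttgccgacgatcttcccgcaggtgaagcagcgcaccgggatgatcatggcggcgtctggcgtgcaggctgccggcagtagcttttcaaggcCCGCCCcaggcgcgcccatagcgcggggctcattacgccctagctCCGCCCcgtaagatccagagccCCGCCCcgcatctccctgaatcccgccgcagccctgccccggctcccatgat
Cd151, chr7:141467112-141467411, plus strand: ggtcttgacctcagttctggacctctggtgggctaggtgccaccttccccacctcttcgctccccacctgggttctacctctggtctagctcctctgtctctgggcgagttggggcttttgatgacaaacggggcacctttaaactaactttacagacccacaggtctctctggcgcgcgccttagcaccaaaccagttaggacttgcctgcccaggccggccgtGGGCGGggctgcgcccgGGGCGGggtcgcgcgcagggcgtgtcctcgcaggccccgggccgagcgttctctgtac
Cd37, chr7:45238790-45239089, minus strand: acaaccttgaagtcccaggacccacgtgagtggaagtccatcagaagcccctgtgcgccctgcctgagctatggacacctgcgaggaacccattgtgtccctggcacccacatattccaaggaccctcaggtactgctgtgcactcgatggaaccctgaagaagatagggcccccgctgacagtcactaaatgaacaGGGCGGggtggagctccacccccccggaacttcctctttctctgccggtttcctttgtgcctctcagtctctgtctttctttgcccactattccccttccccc
Tspan2, chr3:102734520-102734819, plus strand: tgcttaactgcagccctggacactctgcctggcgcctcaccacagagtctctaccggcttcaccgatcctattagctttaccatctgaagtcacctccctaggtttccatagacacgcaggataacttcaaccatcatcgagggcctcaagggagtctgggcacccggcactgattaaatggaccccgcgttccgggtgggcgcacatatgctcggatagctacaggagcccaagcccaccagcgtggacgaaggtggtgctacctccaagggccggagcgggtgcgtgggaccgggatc

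The window of Tspan4 held 3 GC boxes, that of Cd151 2, that of Cd37 1 and that of Tspan2 0, while 35.7% of all 32851 promoters of this length held at least 1. Their GC content was 68.7%, 64.3%, 57.7% and 59.3%, beside a median of 52.7% over all promoters. Of the 21 tested tetraspanins with a promoter listed, 14 held a GC box. The core letters of the PU.1 motif, GAGGAA on either strand, were in the Cd37 window 2 times, in none of the other 3 windows and in 28.3% of all promoters. The AP-1 letters TGANTCA (7.81% of all promoters) and the TATA letters TATAAA (13.6%) were in none of the 4. The E-box CACGTG was in the Cd37 window once and in 7.15% of all promoters. These are matches of letters in a window and show no binding.

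The other leukocyte tetraspanins were not called, at log2 fold changes nearer to 0 than those of Cd37 and Cd151. Cd9, which limits macrophage fusion together with Cd81, was at 4.87 to 5.29 in MHCII-low and 4.66 to 4.80 in MHCII-high, without overlap. Its log2 fold change was -0.38 (95% interval -0.70 to -0.06, adjusted p = 0.179) and not called. Its other probe, on the opposite strand at chr6:125445268-125445327, was above background on 2 of 8 arrays.

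Cd53, a pan-leukocyte tetraspanin, was at 4.47 to 4.60 against 4.04 to 4.24, also without overlap, with a log2 fold change of -0.39 (-0.67 to -0.12, adjusted p = 0.113). Its 4 arrays of a group lay closer together than those of most members, with an SD of 0.08 in MHCII-high and 0.06 in MHCII-low. Cd81, which also limits macrophage fusion, was at 2.86, 2.85, 3.31 and 3.33 in MHCII-low and 2.69, 2.56, 2.47 and 1.99 in MHCII-high. It was lower in MHCII-high without overlap by a log2 of 0.66 in size (95% interval of the change -1.13 to -0.19, adjusted p = 0.114). The second Cd81 probe, a dimmer one, gave -0.76 ± 0.16 (SE) and an adjusted p of 0.0331 over all probes, so the call for Cd81 depends on the probe. Tspan32, a tetraspanin of blood cells and platelets that neighbours Cd81, was at -0.36 (-1.02 to 0.29). A dimmer Tspan32 probe gave -0.59 ± 0.17 (SE) without overlap, not called (adjusted p = 0.0934 over all probes), and another gave -0.11 ± 0.35.

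Of the 6 leukocyte CD tetraspanins as a set, 2 were called (Cd151 and Cd37), both lower, where 2.25% of all genes were called lower. The median of the 6 was -0.53, beside 0.00267 over all genes. Their summed linear signal, to which each gene adds by its own brightness, was 64.2 to 70.3 in MHCII-high and 84.2 to 108 in MHCII-low. The sums did not overlap, and Cd9 and Cd53, which were not called, had the highest mean signals in both groups. The list was put together with earlier results of these data known, and its sums are given as a description.

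The TspanC8 members bind ADAM10 and set which substrates it cuts. They gave 0 calls among 5 tested (Tspan10 was too dim), beside 4.94% of all genes, and their median was -0.23. Tspan17 was at 1.12, 0.78, 0.87 and 0.56 in MHCII-low and 0.24, 0.27, 0.11 and 0.54 in MHCII-high, just apart (log2 -0.54, 95% interval -0.93 to -0.16, adjusted p = 0.115). Tspan14 was at -0.51 (-0.93 to -0.09, adjusted p = 0.164), with overlap. Tspan5 (-0.23, -0.61 to 0.16) and Tspan15 (-0.01, -0.33 to 0.30) had intervals that include 0, and so did Tspan33 at 0.23 (-0.13 to 0.59). The Tspan15 value rests on the brightest of 3 probes: the others gave -0.63 ± 0.47 and -1.43 ± 0.94 (SE), and the mean of its probes -0.69 (adjusted p = 0.446), none called.

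Tspan33, found on activated B cells and macrophages, had a second probe at chr6:29668480-29668539 that gave another picture. This probe carries the RefSeq transcript NM_146173 and stood at -2.90, -1.25, -0.77 and -0.85 in MHCII-low and 0.01, 0.33, 0.52 and 0.03 in MHCII-high. The groups were apart, with a log2 fold change of 1.67 ± 0.45 (SE) that was not called (adjusted p = 0.0737). With the mean of both probes in place of the brightest, Tspan33 was called higher (log2 0.95, adjusted p = 0.045).

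Adam10, the protease itself, was at -0.72 (95% interval -1.18 to -0.26, adjusted p = 0.085), lower without overlap and not called. Of 12 ADAM10 substrates of myeloid cells, 1 was called, Cx3cl1, the membrane-bound chemokine fractalkine, higher by 1.12 on the log2 scale (adjusted p = 0.0454). It was not called in 7 of the 8 fits lacking an array, with adjusted p as high as 0.111, nor with slide row blocked (0.144) or the mean of its probes (0.181). The median of the 12 was -0.17, beside 0.00267 over all genes, of which 4.94% were called.

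**Figure D2:**
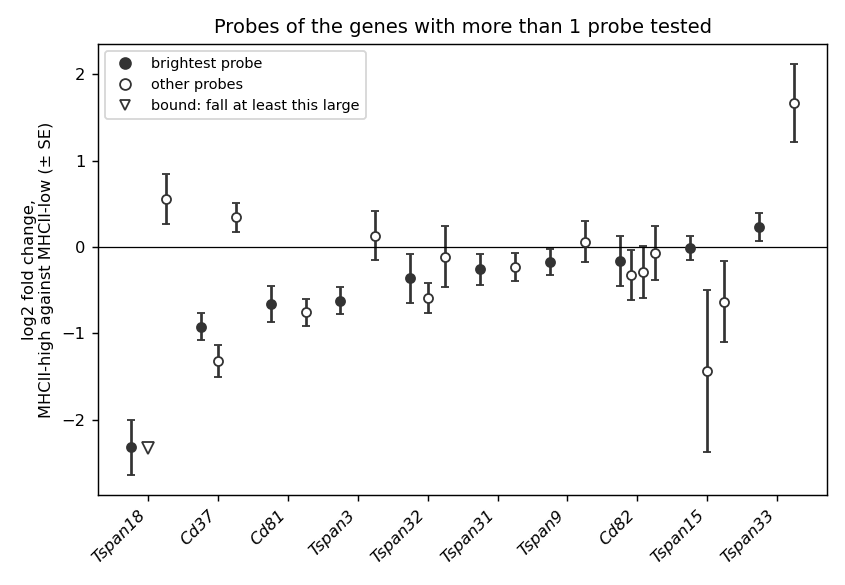
Log2 fold change of MHCII-high against MHCII-low ± SE (y axis) for every probe above background on at least 4 arrays, for the 10 tetraspanins with more than 1 such probe; filled points are the brightest probe of a gene, and the triangle is the bound for the upstream Tspan18 probe (a fall of at least 5.04-fold). Probes of Cd81, Cd82 and Tspan31 lie close together, while those of Tspan18 lie on both sides of 0, those of Cd37 run from -1.32 to 0.34, those of Tspan33 from 0.23 to 1.67 and those of Tspan15 from -1.43 to -0.01.

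Among the remaining tetraspanins, Tspan3 came closest to the threshold. It was at 1.90, 1.73, 2.004 and 2.22 in MHCII-low and 1.30, 1.52, 1.31 and 1.22 in MHCII-high, lower without overlap (log2 -0.62, 95% interval -0.97 to -0.27, adjusted p = 0.0583). It was called with quantile normalization (adjusted p = 0.0492), on the values of the deposited table (0.0499) and when probes had to be above background on all 8 arrays (0.0436), though with the slide row as a block it was not (0.147). A second Tspan3 probe gave 0.13 ± 0.28 (SE), and with the mean of its probes Tspan3 was at -0.25 (adjusted p = 0.46). Tspan31 was at -0.26 (-0.66 to 0.15) and Tspan9, a platelet tetraspanin, at -0.17 (-0.52 to 0.17).

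4 tetraspanins varied more between arrays of a group than between the groups' means or were near background, and no direction is read from them. Tspan13 was at -0.84, 1.34, 2.22 and 2.70 in MHCII-low and 1.99, 2.26, 2.25 and 2.51 in MHCII-high. The low array 20435 made most of its log2 difference of 0.90, which was 0.17 without it. Tspan7, known from neurons and T cell leukaemia, was at -4.03, -3.94, -3.08 and -3.56 in MHCII-low and -4.97, -4.24, -2.68 and -7.05 in MHCII-high (log2 -1.08, 95% interval -2.90 to 0.73).

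Tspan1, an epithelial tetraspanin, was well above background on 4 MHCII-high arrays and 1 MHCII-low array. Its values were -4.26, -7.59, -6.43 and -7.13 in MHCII-low and -4.87, -3.88, -5.13 and -3.55 in MHCII-high. It reached 4 arrays above background through MHCII-high alone, so no interval or p is given for it. The log2 difference of 1.998 was not called, and it was 0.43 with normexp background correction. MHCII-low 20435 was the 1 MHCII-low array above background, and without it no fold is given, since the MHCII-low group would hold only values at background.

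Tspan8, a tetraspanin of gut epithelium and pancreas tumours, followed the label number rather than the sort. It was at -7.67, -4.88, -4.43 and -7.47 in MHCII-low and -7.40, -4.69, -3.21 and -7.36 in MHCII-high, so numbers 20436 and 20439 were the higher ones in both groups and the only ones above background. The summed signal of 6 epithelial markers had the same split: 5.09, 9.99, 10.5 and 6.07 in MHCII-low, and 6.40, 11.49, 15.7 and 3.22 in MHCII-high. Its part in the Tspan8 values was not tested. Of those epithelial markers, Cdh1 was called, higher in MHCII-high by 1.73 on the log2 scale (adjusted p = 0.0335), and in 7 of 8 fits lacking an array it was not called.

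**Figure D3:**
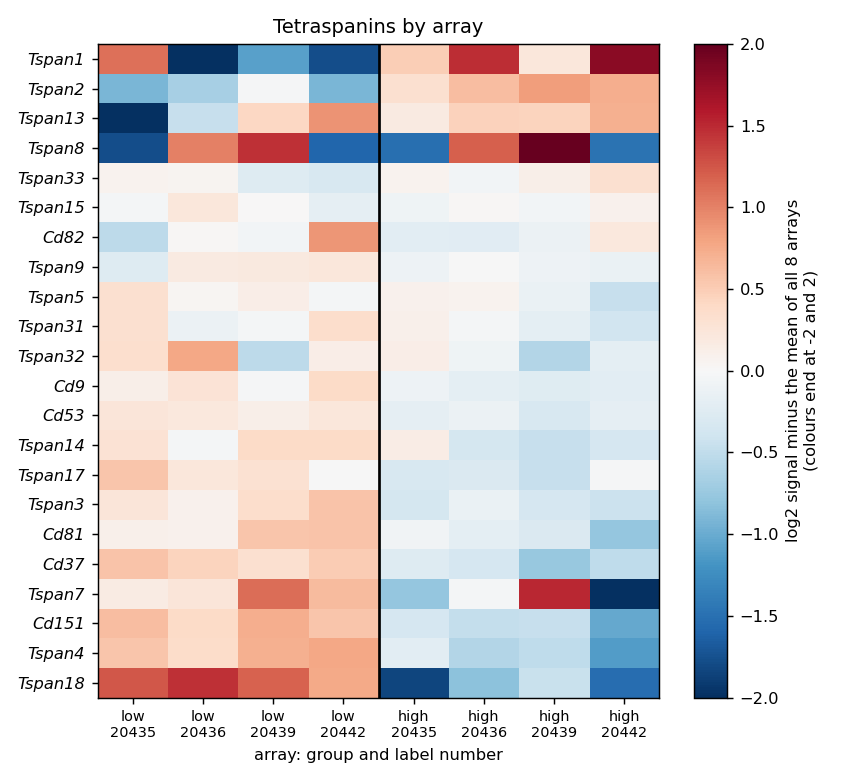
Log2 signal of each of the 22 tetraspanins tested (rows, ordered by fold change) on each of the 8 arrays (columns, by group and label number), as the difference from the gene's mean over all arrays; the colour scale ends at -2 and 2. The lower rows, from Cd9 down and apart from Tspan7, are mostly red in MHCII-low and blue in MHCII-high, while Tspan8 is red for label numbers 20436 and 20439 in both groups and Tspan13 is deep blue in MHCII-low 20435 alone.

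Tetraspanins that go by other names were not called in either direction, 0 of 5, beside 4.94% of all genes. Cd63, the tetraspanin of lysosomes and exosomes, was at -0.45 (95% interval -0.82 to -0.09, adjusted p = 0.156), lower without overlap. Rom1, a photoreceptor tetraspanin, was at 0.68 (adjusted p = 0.075), higher without overlap, and Prph2, Upk1a and Upk1b were at -0.15, -0.32 and -0.05.

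Known partners of tetraspanins were called in 4 of 32 tested, 3 higher and 1 lower in MHCII-high, with a median of -0.09. The shares over all genes were 2.69% higher and 2.25% lower, and the median was 0.00267. The integrin Itgax (CD11c) rose by 2.12 on the log2 scale (95% interval 1.54 to 2.70, adjusted p = 0.00458), and Ifitm1, an antiviral membrane protein found in complexes with Cd81, rose by 1.74 (1.27 to 2.20, adjusted p = 0.00431). The 1 that fell was Itga6, given above with Cd151. Itgax is also used to mark dendritic cells, whose summed marker signal is given above, and its part in this result was not tested.

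Of 17 vesicle and multivesicular body genes, 2 fell and 0 rose, where 2.25% of all genes were called lower and 2.69% higher. The median of the 17 was -0.31, beside 0.00267 over all genes. Rab27a, a GTPase that docks vesicles for release, fell by 1.34 on the log2 scale (95% interval of the change -1.79 to -0.89, adjusted p = 0.0095) and was called with the slide row as a block (0.0318). Lamp2, a lysosomal membrane protein, fell by 0.85 (adjusted p = 0.0399), a call lost on blocking slide row (0.139) and in 7 of 8 fits lacking an array. With the mean of its probes Lamp2 was at -0.15 (adjusted p = 0.615), so the fall depends on the probe.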

How the data were processed

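Macrophage RNA from 8 samples was hybridised to 1-colour Agilent arrays. The deposited scanner files hold spot intensity values made with Agilent Feature Extraction 11.5.1.1, as the submitters' processing notes and the file headers state, with background subtracted and spatial trends removed within the array. The deposited series table holds log2 values whose array medians lie between 9.38137 and 9.38149; how the authors made it is not given in the sources used here, and each column matched a quantile normalization of its own array's log2 signal (r of at least 0.999998 across probes).

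Control spots and outlier-flagged spots (67 to 160 per array) were left out. Log2 processed signals minus the 75th percentile of their array were averaged per probe, probes called well above background by 4 or more arrays were kept, and the brightest probe stood for its gene. Levels are not compared between probes. Limma 3.58.1 (lmFit, eBayes; R 4.3.3) compared MHCII-high with MHCII-low, 2-sided, with Benjamini-Hochberg adjustment over 27963 genes and a threshold of 0.05. Single probes were fitted likewise over 41116 probes. Names outside the rule came from RefSeq's GRCm38.p6 table. Probe coordinates are the files', on mm9. The fit was tested on simulated data.

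Every member past the threshold is given by array; of the others, the 3 highest and 3 lowest fold changes, the 6 CD tetraspanins, the TspanC8 members, called genes of the lists, Cd63 and Adam10 are named with values, and other genes by their values where a probe or neighbour bears on a member. A gene of the lists is not reported here by name. Members and lists were chosen with earlier results of these data known. The alternatives were other background corrections and normalizations, the deposited table, other filters, the mean of a gene's probes, label number or slide row as a block, and leaving out each array.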

Additional observations from a re-analysis of the deposited data

Results flagged for a closer look

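Over 44 groups of 4 arrays (22 tetraspanins in both sorts), 1 array stood apart from its group by Dixon's test at the 95% level, where chance flags about 1 in 20 groups. Tspan9 in MHCII-low 20435 was at -2.50 on the log2 scale relative to the 75th percentile of the array, and the nearest of the other 3 was at -2.08. Tspan9 was not called with or without that array.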

How the results depend on the processing

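The tetraspanin median stayed negative under all 17 alternatives, between -0.45 and -0.26, and no called tetraspanin changed sign. Of 27963 genes, 1381 were called, but 455 with the slide row as a block, 803 with the label number as a replicate block, and 554 to 1168 with 1 array left out. Called tetraspanins numbered 5, with 1 under the slide row block and 3 to 5 with 1 array left out. Label numbers shared by the groups gave correlations of deviations of 0.189, 0.128, 0.21 and 0.083 across genes, and each array correlated best with its own number. No label says that the numbers pair the samples, so the main fit did not pair them, and whether they are pairs was not settled. With that replicate block 4 tetraspanins were called, Tspan4 not (adjusted p = 0.0637).

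Over all genes, 4.94% were called in the main fit, 6.8% with normexp and 6.82% with all 8 arrays above background. The share was 1.98% to 4.18% with 1 array left out, 4.29% with median scaling and 2.9% with no filter. It was 5.19% with the mean of all probes, 5.28% with quantile normalization, 5.25% with the deposited table and 1.63% with the slide row block. The label number block called 803 of 27963 genes. Called partners numbered 4, 7 with normexp or with all 8 arrays above background, and 3 to 6 with 1 array left out. Called vesicle genes numbered 2, and 1 with median scaling, no filter on dim probes, the mean of all probes, or either block, and 1 to 3 with 1 array left out. Called ADAM10 substrates numbered 1, 3 with normexp or all 8 arrays above background, 2 with quantile normalization, the deposited table or the mean of all probes, 0 with no filter or either block, and 0 to 2 with 1 array left out. Signs turned for 3 uncalled genes. Tspan15 was at 0.00657 with quantile normalization, 0.007 in the deposited table and 0.0557 with the slide row block, and between -0.074 and 0.0609 with 1 array left out, and it moved to -0.69 with the mean of its probes. With 1 array left out, Tspan8 ranged from -0.37 to 1.03 and Cd82 from -0.36 to 0.11. The cause was not tested.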
